A study of Mus musculus with 17 samples.

Results

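Deletion of the chemokine receptor gene Cxcr4 in myeloid cells was examined in macrophages sorted from the mammary gland of virgin mice, in 4 of the 17 libraries of the study. The groups compared were chosen by their column titles in the table of the knockout experiments: LysmCre+ controls (2 libraries, repeats 1 and 2) and LysmCre+, Cxcr4fl/fl knockouts (2 libraries, repeats 1 and 2). The titles call the controls wild type, while their genotype field gives LysmCre+, so the LysM-Cre allele is shared by all 4. All cells were sorted on F4/80 and CD11b after mechanical and enzymatic dissociation. Another 4 macrophage libraries of the same table, 2 from K8Cre+ controls and 2 from K8Cre+, Cxcl12fl/fl mice, served to show the spread between libraries. LysM-Cre acts in macrophages, monocytes, neutrophils and part of the dendritic cells, so deletion is not limited to mammary macrophages. The labels give neither the age of the mice, nor the number of copies of the Cre allele, nor whether the libraries of a group came from separate mice. Every p-value below therefore rests on the spread between libraries, which may be technical. For each gene, that spread was estimated mostly from other genes of like level.

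CXCR4 is a G protein-coupled receptor whose ligand is the chemokine CXCL12. It signals through inhibitory G proteins to PI3K, AKT and the actin cytoskeleton, and it directs leukocyte migration and retention. In the mammary gland, tissue macrophages lie along ducts and in the stroma, where they take up debris, present antigen and secrete growth factors for the epithelium.

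The 4 libraries held 14.2 to 28.0 M reads, and a count of 3 reads, taken as the lower limit of detection, corresponded to 0.107 to 0.212 CPM (counts scaled to library depth). Between 10.7% and 30.6% of the 19782 listed genes were at 0. Both repeat 1 libraries had more genes at 0 (30.6% and 25.2%) than both repeat 2 libraries (19.6% and 10.7%), and less small noncoding RNA (5.20% and 5.002% against 19.3% and 17.9%). In both measures the repeats differed more than the genotypes did. At a mean of at least 10 CPM, 54.0% of genes differed by 2-fold or more between the 2 controls, and 44.2% between the 2 knockouts. Markers of the sort were present in all 4 libraries. Adgre1, which encodes F4/80, stood at 408 and 627 CPM in the controls and 546 and 640 CPM in the knockouts. Itgam, the gene of CD11b, had 276 and 243 CPM against 335 and 288 CPM. Csf1r, the receptor for the macrophage growth factor CSF1, had 1039 and 479.6 CPM against 1241 and 672 CPM. Fcgr1, the gene of the Fc receptor CD64, was low throughout, at 0 and 16.4 CPM in the controls and 3.86 and 8.90 CPM in the knockouts. None of these 4 genes passed the test for a change described next.

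Lyz2, the macrophage lysozyme gene, fell in both repeats. It stood at 10226 CPM in control 1 and 2780.25 CPM in control 2, and at 67.4 and 51.7 CPM in the knockouts. Both knockout libraries lay far below all others, since the 4 K8-Cre libraries held 5099 to 7922 CPM. Control levels were 152-fold those of the knockout in repeat 1 and 53.8-fold in repeat 2. On the log2(CPM + 1) scale used for all changes, the difference was -7.22 in repeat 1 and -5.72 in repeat 2. In limma's moderated test over all 8 macrophage libraries, with Benjamini-Hochberg adjustment over 17275 genes, the change was -6.47 (SE 0.40, 95% interval -7.26 to -5.68, adjusted p = 1.03e-25). The call was lost when the spread was not modelled as a trend with level (adjusted p = 1), where the change itself was again -6.47. In LysM-Cre mice the Cre sequence is inserted in Lyz2 itself. With the copies of that allele not labelled, an effect of the insertion and one of Cxcr4 loss cannot be told apart.

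Lyz1, the neighbouring lysozyme gene known for its expression in Paneth cells of the gut, did not share this pattern. It stood at 523 and 1659 CPM in the controls and at 2408 and 1599 CPM in the knockouts, so the groups overlapped. Its change was 2.20 in repeat 1 and -0.05 in repeat 2 (limma 1.07, SE 0.43, adjusted p = 1). Without control 2 it passed (1.91, adjusted p = 0.0243). Of the reads on both lysozyme genes together, Lyz1 took 4.86% and 37.4% in the controls and 97.3% and 96.9% in the knockouts. In the K8-Cre libraries the share was 6.22% to 11.0%. Control 2 therefore lay between the other controls and the knockouts in this ratio.

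Both lysozyme genes are close in place and sequence, which bears on how their reads can be told apart. Lyz2 (ENSMUSG00000069516) lies on the minus strand at chr10:117277331-117282321 and Lyz1 (ENSMUSG00000069515) at chr10:117287797-117292868 of GRCm38. Their coding sequences are 447 bases long in the GENCODE M21 transcripts, differ at 22 bases (95.1% identity) and share an identical run of 118 bases. The first 120 coding bases of each, which hold 11 of the differing bases, are given 5′ to 3′ from the start codon, with differing bases in capitals.
Lyz1: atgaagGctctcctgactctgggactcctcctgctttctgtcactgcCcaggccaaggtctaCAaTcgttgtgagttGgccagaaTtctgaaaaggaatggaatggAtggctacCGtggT
Lyz2: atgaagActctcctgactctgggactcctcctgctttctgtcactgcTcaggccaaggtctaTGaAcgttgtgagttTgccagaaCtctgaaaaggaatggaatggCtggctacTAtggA
How reads from identical stretches were divided between the genes is not given in the sources used here, so the split between Lyz1 and Lyz2 is uncertain, more so for the remaining Lyz2 signal of the knockouts. The sum of both genes was 10748 and 4439 CPM in the controls and 2475 and 1651 CPM in the knockouts, and does not depend on that split.

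Cxcr4 itself, the targeted gene (chr1:128588199-128592293, minus strand), was lower in both knockout libraries. It stood at 819 and 318 CPM in the controls and at 232 and 140 CPM in the knockouts. Both knockout values lay below all 6 other libraries, as the K8-Cre libraries held 337 to 661 CPM. The knockout of each repeat had 28.4% and 44.1% of the level of its control. The changes were -1.81 and -1.18. The limma estimate was -1.49 (SE 0.49, 95% interval -2.46 to -0.53) with an adjusted p of 1 across the tested genes. It passed without control 2 (-2.17, adjusted p = 0.0145) and was -0.81 without control 1. Lymphocytes also carry CXCR4, and their genes had lower sums in the knockouts. The summed level of 20 T and NK cell genes was 570 and 452 CPM in the controls against 334 and 244 CPM in the knockouts, and that of 15 B cell genes was 1121 and 581 CPM against 585 and 463 CPM. Their part in the Cxcr4 difference was not tested. In bulk RNA, fewer cells of a type and less RNA per cell cannot be told apart.

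Cxcl12, the ligand gene, did not move in 1 direction. It had 24.3 and 48.1 CPM in the controls and 6.29 and 53.9 CPM in the knockouts (-1.80 and 0.16). Ackr3, the gene of the scavenging CXCL12 receptor, was near the lower end of expression, with 2.69 and 3.68 CPM against 3.74 and 9.29 CPM (0.36 and 1.14). Neither passed (adjusted p = 1 for both with limma).

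**Figure D1:**
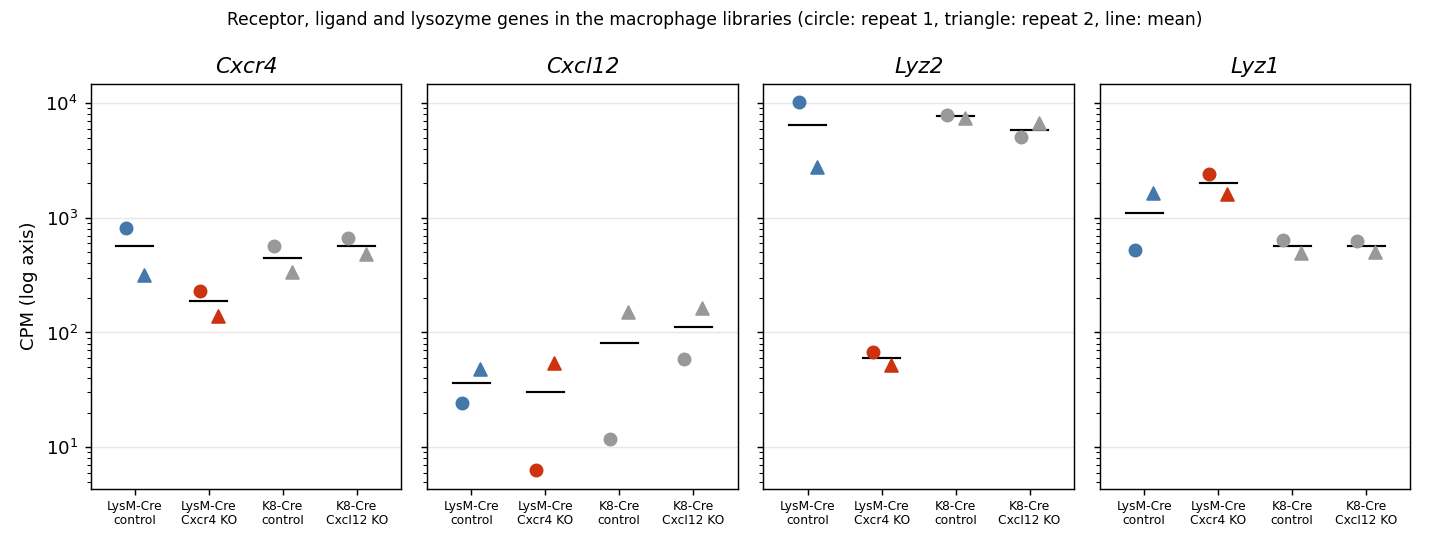
CPM of Cxcr4, Cxcl12, Lyz2 and Lyz1 (log axis) in the 8 macrophage libraries, by Cre line and genotype. Circles are repeat 1, triangles repeat 2 and lines the mean of each group of 2. For Lyz2 and Cxcr4 both knockout libraries (67.4 and 51.7, and 232 and 140 CPM) lie below all other libraries.

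Lyz2 was the only gene of 17275 that passed with limma (0.00579%). At an unadjusted p under 0.05, 374 genes were higher (2.16%) and 201 lower (1.16%). The count of passing genes depended on single libraries, with 150 genes, 134 of them higher, when control 2 was left out. Leaving out control 1 gave 17 and leaving out knockout 2 gave 19. Of the K8-Cre libraries, the Cxcl12 knockouts gave 4 (repeat 1 left out) and 3 (repeat 2 left out). In the contrast of the Cxcr4 knockout with the Cxcl12 knockout of the K8-Cre line, Lyz2 was again the only gene past the threshold (0.00579%), with a difference of -6.08 (SE 0.56, adjusted p = 2.88e-14). It did not pass at a mean of at least 20 CPM or with no trend. At an unadjusted p under 0.05, 165 genes had a higher (0.955%) and 263 a lower (1.52%) difference. For Cxcr4 that difference was -1.87 (SE 0.69, adjusted p = 1.00).

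Agreement between the repeats was then counted directly. Of 8807 genes with a mean of at least 10 CPM, 278 were at least 2-fold higher in the knockout of both repeats (3.16%) and 206 at least 2-fold lower (2.34%). A further 542 (6.15%) differed by 2-fold or more in opposite directions, which is more than the 484 (5.5%) in the same direction. Repeat 1 held most of the large differences, with 51.9% of genes past 2-fold against 17.1% in repeat 2. Across these genes, which are not independent and share libraries, the changes of the repeats had a Pearson r of -0.017. Among the 1976 genes with at least 100 CPM, 8 agreed and 6 were opposite. The 4 lower genes (0.202%) included Lyz2, Cxcr4 and the pseudogene Rps19-ps6. The 4 higher ones (0.202%) were B4galt5, Gm10157, Stk10 and Oasl1. Oasl1, an interferon-inducible gene, stood at 130.4 and 32.9 CPM in the controls and 488 and 84.6 CPM in the knockouts, with overlap between the groups. Overlap was present too for Stk10, a lymphocyte-enriched kinase gene, with 122 and 50.3 CPM against 282 and 116 CPM. The same was true of the glycosyltransferase gene B4galt5, with 202 and 67.8 CPM against 408 and 148 CPM.

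**Figure D2:**
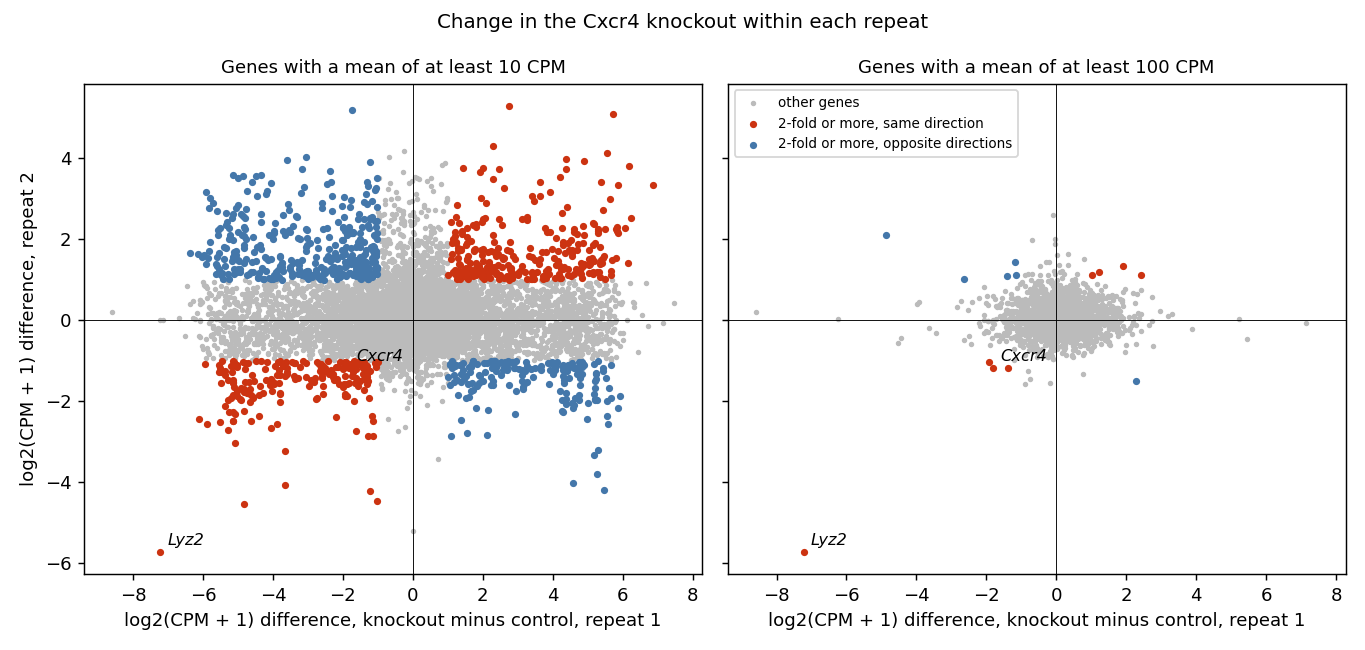
Knockout minus control on the log2(CPM + 1) scale in repeat 1 (x axis) and repeat 2 (y axis), 1 point per gene, for 8807 genes with a mean of at least 10 CPM (left) and 1976 with at least 100 CPM (right). Red points agree at 2-fold or more (484 left, 8 right), blue points are opposite (542 left, 6 right), and Lyz2 stands alone at the lower left.

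Among genes with no overlap between the genotypes (14.9% higher and 12.3% lower of the 8807), the largest changes shared by both repeats were in genes of low to moderate level. The 10 CPM limit was set on the mean of the 4 libraries. Apart from Lyz2, the genes named here passed it only through the group where they were high. Control means of the 15 higher genes ran from 0.0497 (Rab29) to 5.13 CPM (Tpcn2). The 15 higher genes had smaller-of-both changes of 2.51 to 3.97 and no adjusted p below 0.649. Their leader was Fbxo21, a substrate-binding part of a ubiquitin ligase, at 0.565 and 0.397 CPM in the controls and 31.6 and 20.9 CPM in the knockouts. Its K8-Cre levels ran from 7.28 to 101 CPM, so the LysM-Cre controls were the libraries that stood apart. Ptger1, a receptor for prostaglandin E2, showed the same, with 0 and 1.47 CPM against 71.2 and 33.3 CPM and 11.6 to 69.1 CPM in the K8-Cre libraries. So did Armcx3, a mitochondrial outer membrane protein gene (0.107 and 4.56 CPM against 54.3 and 43.0 CPM, K8-Cre 16.8 to 62.2 CPM). Dvl3, a relay of Wnt signals, had 0.636 and 2.33 CPM against 19.4 and 34.5 CPM, within 15.1 to 36.6 CPM in the K8-Cre libraries. Of the 15, Rab29 and Sgsh were the genes whose knockout levels lay above all 6 other libraries. Rab29, a small GTPase of lysosomes and the trans-Golgi, had 0 and 0.0993 CPM against 28.7 and 15.8 CPM. Sgsh, a lysosomal sulfatase for heparan sulfate, had 0.424 and 2.68 CPM against 26.2 and 22.2 CPM. The rest were Stx8, Jkamp, Osbpl7, Skap1, Slit3, Tpcn2, Mrps24, Pprc1 and Opa3. Of the 15, 6 overlap another protein-coding gene in GENCODE M21, among them Ptger1. Whether reads were counted by strand is not given in the sources used here, so reads of such pairs cannot be told apart.

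The 15 lower genes had smaller-of-both changes of -5.72 (Lyz2) to -1.98. Apart from Lyz2, their knockout means ran from 0.137 (Arhgef25) to 2.63 CPM (Kcnn4), so they passed the limit only through the controls. After Lyz2 came Nkg7, a granule protein of cytotoxic T and NK cells, with 39.2 and 34.8 CPM in the controls and 2.20 and 1.14 CPM in the knockouts. The changes of -3.65 and -4.06 were close in both repeats, but the K8-Cre libraries spanned 1.96 to 22.6 CPM. Cd200r4, a paired receptor of myeloid cells, had 35.0 and 9.93 CPM against 0.0594 and 0.325 CPM, below the 3.65 to 16.9 CPM of the K8-Cre libraries. Its knockout 1 value was below the 3-read limit of that library (0.178 CPM). Also below all 6 others were Ggct, an enzyme of glutathione turnover (19.6 and 22.3 CPM against 0.238 and 2.72 CPM), Kcnip3 (38.7 and 4.32 CPM against 0.891 and 0.0357 CPM), Tns2 (75.1 and 13.8 CPM against 1.01 and 2.07 CPM) and the calcium-activated potassium channel gene Kcnn4 (41.7 and 16.0 CPM against 2.08 and 3.18 CPM). Fars2, Ppp5c, Platr25, Rp9, Arhgef25, Uckl1os, Lin37 and Srm completed the set, with knockout levels of 0 to 3.01 CPM. The antisense gene Uckl1os and 3 others overlap a protein-coding gene and are uncertain in the same way. None but Lyz2 passed.

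**Figure D3:**
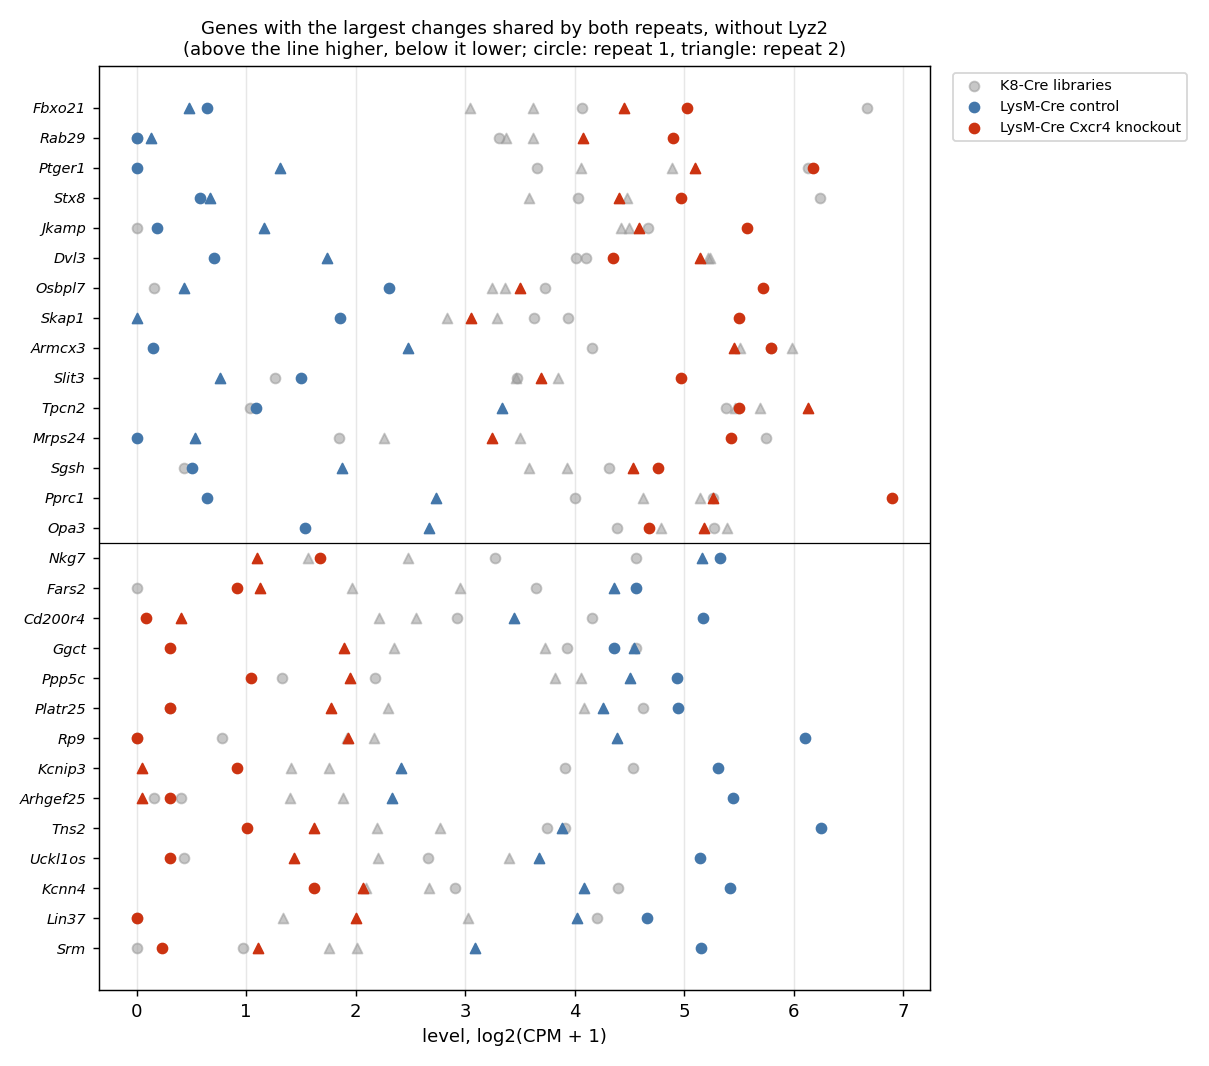
Level on the log2(CPM + 1) scale of the 15 higher and 14 lower genes with the largest changes shared by both repeats, leaving out Lyz2, in the 4 LysM-Cre libraries (coloured) and 4 K8-Cre libraries (grey). Circles are repeat 1 and triangles repeat 2. For most of the higher genes the grey points lie with the knockouts or between the groups.

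A further rule asked that both knockout libraries lie outside all 6 other libraries. How often other groupings of the libraries would meet this rule was not tested. This held for 158 genes above (1.79%) and 179 below (2.03%) at 10 CPM or more. At 100 CPM or more it held for 33 above (1.67%) and 30 below (1.52%). The 10 of each direction with the largest smaller-of-both change were chosen after their values were seen. Plac8, a monocyte gene, had 82.4 and 67.6 CPM in the controls and 187 and 126 CPM in the knockouts (1.18 and 0.89). Mmp9, a gelatinase gene also known from neutrophils, had 59.1 and 110.05 CPM against 197 and 168 CPM (1.72 and 0.61). Nlrp3, the sensor of an inflammasome, stood at 257 and 215 CPM against 457 and 300.01 CPM (0.82 and 0.48). The chemokine receptor gene Ccr1 (72.1 and 95.2 CPM against 130.5 and 135 CPM), the RNA sensor gene Tlr8 (34.5 and 100.2 CPM against 131 and 142 CPM), the ectonucleotidase gene Entpd1 (109 and 76.4 CPM against 166 and 139 CPM) and the endocytic adaptor gene Dab2 (231 and 328 CPM against 475 and 449.9 CPM) were also above. Gas7, Prr13 and Mtss1 made up the 10.

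Below all others, beside Lyz2 and Cxcr4, were a protease, a cytokine receptor and a prostaglandin enzyme. Mmp12, the macrophage elastase gene, had 133 and 142 CPM in the controls and 64.4 and 92.9 CPM in the knockouts (-1.04 and -0.60), against 137 to 223 CPM in the K8-Cre libraries. Il7r, the interleukin-7 receptor gene, had 161 and 168 CPM against 111 and 96.6 CPM (-0.54 and -0.79). Ptgs2, which encodes cyclooxygenase-2, had 494 and 485 CPM against 159 and 375 CPM (-1.63 and -0.37). The remaining 5 were Mbnl1, Becn1, Rcc2, Fam117b and Ube3a. Ube3a rested on repeat 1, at -3.43 against -0.31. Apart from Lyz2, adjusted p was 1 for all 20 genes with limma.

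Gene groups were described by how many members with at least 10 CPM were higher or lower in both repeats by any amount, which held for 26.6% and 22.6% of all such genes. For signalling downstream of the receptor, 4 of 20 members of the CXCL12 receptor axis were higher and 4 lower. Besides Cxcr4, the gene of the G protein subunit Gnaq differed by 2-fold in both repeats, with 55.1 and 39.7 CPM in the controls and 135 and 81.4 CPM in the knockouts. The K8-Cre libraries, at 86.9 to 105 CPM, lay with the knockouts. Of 21 PI3K and AKT genes, 10 were higher and 2 lower. The most abundant, the regulatory subunit gene Pik3r1, was opposite, at 406 and 338 CPM against 552 and 333 CPM. Of the higher members, Akt2 had 38.5 and 43.2 CPM against 147 and 62.6 CPM, and Pik3cg, the PI3K catalytic subunit coupled to G protein-coupled receptors, had 112.6 and 97.8 CPM against 160.2 and 158 CPM. Foxo3, a factor held out of the nucleus by AKT, was lower, at 262 and 200.2 CPM against 181 and 146 CPM. Integrins and actin regulators were split, with 9 of 26 higher and 11 lower. No member of these 3 lists passed.

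Macrophage identity genes showed no common direction, with 8 of 23 higher and 6, Lyz2 included, lower in both repeats. Markers of resident stromal macrophages were higher for 10 of 23, lower for 4 and opposite for 9. The most abundant, the mannose receptor gene Mrc1, had 898 and 1072 CPM against 1412 and 1081 CPM, with hardly any difference in repeat 2 (0.65 and 0.01). F13a1, a coagulation factor gene, was opposite, at 467 and 870 CPM against 1007 and 848 CPM. Of the higher members, Folr2, a folate receptor gene of resident macrophages, had 118 and 50.2 CPM against 234 and 71.9 CPM. Lyve1, a hyaluronan receptor gene, had 96.5 and 83.7 CPM against 135 and 96.0 CPM. The lectin gene Cd209g was lower, at 35.3 and 52.9 CPM against 1.40 and 41.6 CPM. Markers of CX3CR1+ ductal macrophages were higher for 1 of 14, lower for 6 and opposite for 7. The most abundant, the cystatin C gene Cst3, was opposite, at 1383 and 762 CPM against 1496 and 691 CPM. Among the lower, Siglech stood at 95.3 and 34.8 CPM against 23.3 and 22.1 CPM. Siglech is also on the list of dendritic cell markers, so these lists overlap. Itgax, the gene of CD11c, stood at 458 and 263 CPM against 172 and 244 CPM. Of 14 MHC class II presentation genes, 7 were lower and 1 higher. H2-DMa, which helps to load peptides, had 460.3 and 605 CPM against 279 and 492 CPM, while the most abundant member, H2-Aa, had 12106.5 and 9016 CPM against 10528 and 8372 CPM. Dendritic cell markers were lower for 5 of 14 and higher for 1. Itgae, the gene of CD103, had 33.6 and 14.8 CPM against 10.7 and 4.15 CPM, and both knockouts were below the 12.5 to 36.5 CPM of the K8-Cre libraries. Of 17 monocyte genes 7 were higher, 4 lower and 6 opposite between the repeats. The most abundant ones were among the opposite. Fn1, the fibronectin gene, had 1358 and 836 CPM against 1775 and 749 CPM, and Ccr2, the receptor gene for CCL2, had 276 and 1004 CPM against 672 and 738 CPM. Higher members included Ace, which encodes the angiotensin-converting enzyme, at 117 and 39.1 CPM against 202 and 113 CPM, Itgal, at 186 and 109 CPM against 363 and 182 CPM, and Treml4, at 30.9 and 7.55 CPM against 47.8 and 18.9 CPM. Lower members included the transcription factor gene Klf2, at 219 and 91.0 CPM against 137 and 82.0 CPM.

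T and NK cell genes were lower in both repeats for 8 of 11 members and higher for none. Those lower by 2-fold in both were Nkg7, given above, and the T cell receptor genes Trac (54.2 and 28.9 CPM against 0.178 and 11.4 CPM) and Trbc1 (25.3 and 15.8 CPM against 0.0568 and 3.67 CPM). The K8-Cre libraries spanned 0 to 22.2 CPM for Trac and 1.49 to 33.6 CPM for Trbc1, so some were as low as the knockouts. In knockout 1, Trac was at the 3-read limit and Trbc1 below it. The kinase gene Lck had 50.7 and 20.6 CPM against 26.2 and 8.44 CPM. Cd3e, a defining T cell gene below the 10 CPM limit, had 11.9 and 6.06 CPM against 9.86 and 1.89 CPM. The summed level of the list, 452 to 570 CPM in the controls and 244 to 334 CPM in the knockouts, was 339 to 669 CPM in the K8-Cre libraries. B cell genes were lower for 7 of 13 and higher for 2. Ms4a1, which encodes CD20, had 43.2 and 66.0 CPM against 12.3 and 30.8 CPM, and Pax5, the B cell lineage factor, had 61.0 and 55.8 CPM against 35.3 and 28.7 CPM. The list summed to 581 to 1121 CPM in the controls, 463 to 585 CPM in the knockouts and 263 to 733 CPM in the K8-Cre libraries. No T, NK or B cell gene passed. Neutrophil and eosinophil genes were higher for 3 of 12, lower for 1 and opposite for 8, with Mpo at 0 in all 4 libraries. Luminal genes (1 of 9 higher, 2 lower), basal genes (2 of 7 each way), fibroblast and adipocyte genes (0 of 8 higher, 2 lower, Adipoq at 0 in all 4) and endothelial genes (2 of 5 higher, 0 lower) gave few members to compare.

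Wnt ligand genes were mostly too low to follow. Of 24 genes listed as Wnt ligands and their secretion factors, 2 reached 10 CPM. Wls, the carrier that brings Wnt proteins to the surface, had 85.4 and 42.8 CPM in the controls and 35.9 and 34.2 CPM in the knockouts, and Wnt11 had 73.6 and 21.0 CPM against 61.9 and 31.5 CPM. Wnt4 was at 0.0707 and 0.0497 CPM against 2.38 and 4.15 CPM, with both control values at 1 read, below the 3-read limit. Of 15 genes of beta-catenin signalling, 3 were higher and 2 lower. Of 12 Notch pathway genes, 3 were higher and 3 lower, and the ligands did not share a direction. Dll4, with a mean below the 10 CPM limit and so not among the 12, had 0.212 and 0.199 CPM against 27.3 and 7.44 CPM. Dll1, the Notch ligand of mammary stem cells, had 54.8 and 18.3 CPM against 17.0 and 1.89 CPM. Its K8-Cre levels, 2.79 to 9.60 CPM, lay below both controls and knockout 1. Jag2, also below the limit, had 20.8 and 4.47 CPM against 6.89 and 1.04 CPM. Of 15 growth factor genes, 3 were higher and 4 lower, with Pdgfa at 16.0 and 32.7 CPM against 0.0594 and 10.7 CPM. Chemokine genes were higher for 8 of 19, lower for 2 and opposite for 9. The most abundant, Ccl22, was opposite, at 820.2 and 553 CPM against 338 and 731 CPM. The higher members included the monocyte attractant gene Ccl2 (185 and 230 CPM against 349 and 279 CPM) and Ccl4 (178 and 88.7 CPM against 342 and 135 CPM). Chemokine receptors other than Cxcr4 were even, with 3 of 11 each way. Cxcr5, a B cell and T cell receptor gene with a mean below the 10 CPM limit, was not among the 11. It was at 1.12 and 0.850 CPM against 16.9 and 12.6 CPM, opposite to Nkg7, Trac and Ms4a1 above. Its K8-Cre levels, 2.67 to 37.1 CPM, lay above both controls and ran from below to above the knockouts.

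Among genes of uptake and breakdown, 13 of 25 lysosomal genes were higher in both repeats and 2 lower. The changes were small except for a few. The most abundant, the cathepsin B gene Ctsb, had 1606 and 1027 CPM against 1911 and 1054 CPM. Ctsa, a protective carboxypeptidase, had 184 and 79.3 CPM against 314 and 150 CPM, the cholesterol transporter gene Npc1 had 92.1 and 61.2 CPM against 227 and 103 CPM, and Hexa, a subunit of hexosaminidase, had 186 and 64.8 CPM against 297 and 96.6 CPM. Median changes of the list were 0.30 in repeat 1 and 0.18 in repeat 2, against 0.00 and 0.11 for all genes tested. Of 23 complement and clearance genes, 11 were higher and 6 lower. The chains C1qa (138 and 96.6 CPM against 263 and 136 CPM) and C1qc (347 and 119 CPM against 445 and 154 CPM) and the alternative pathway factor Cfb (66.1 and 19.3 CPM against 112 and 68.8 CPM) were among the higher. C1qb, the most abundant C1q chain, did not share that direction, at 410 and 238 CPM against 378 and 250.04 CPM (-0.12 and 0.07). The 2 proteases of the C1 complex differed from each other. C1s1 had 30.9 and 23.4 CPM against 8.97 and 5.17 CPM, below the 38.7 to 66.1 CPM of the K8-Cre libraries, while C1ra had 19.998 and 1.61 CPM against 47.4 and 10.8 CPM. Axl, an uptake receptor for dying cells, was lower at 204 and 168 CPM against 115 and 124 CPM.

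Alternative activation genes were higher for 4 of 16, lower for none and opposite for 12, so the share higher was near that of all genes. The most abundant, Retnla, a secreted protein gene induced by interleukin-4, had 1946 and 1847 CPM against 4087 and 1824 CPM, with the difference in repeat 1 alone (1.07 and -0.02). The higher members included Il4ra, the interleukin-4 receptor gene, at 189.7 and 167 CPM against 434 and 235 CPM and the lectin gene Mgl2 at 163 and 70.1 CPM against 332 and 112 CPM. Mitochondrially encoded genes were higher for 10 of 13 and lower for none, by medians of 0.26 and 0.28. Their share of reads differed more between repeats (1.92% and 0.849% in the controls) than between genotypes (2.31% and 1.01% in the knockouts). Cell cycle genes were lower for 6 of 11 and higher for none. Top2a, the topoisomerase of dividing cells, had 65.9 and 64.2 CPM against 32.2 and 36.6 CPM, and Mki67 had 137 and 57.0 CPM against 122 and 42.9 CPM. Genes induced by tissue dissociation were lower for 12 of 28 and higher for 2, but repeat 1 had a median of -0.72 and repeat 2 one of -0.00. Junb had 1022 and 858 CPM against 439 and 648 CPM. Inflammatory cytokine and NF-kB genes (5 of 21 higher, 5 lower), interferon-stimulated genes (5 of 28 higher, 2 lower), lipid handling (4 of 15 higher, 2 lower), sterol synthesis (3 of 13 higher, 4 lower), glycolysis (4 of 20 higher, 2 lower), iron and heme handling (6 of 16 higher, 4 lower) and Fc and pattern receptors (4 of 21 higher, 3 lower) stood near or below the shares for all genes or were split.

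**Figure D4:**
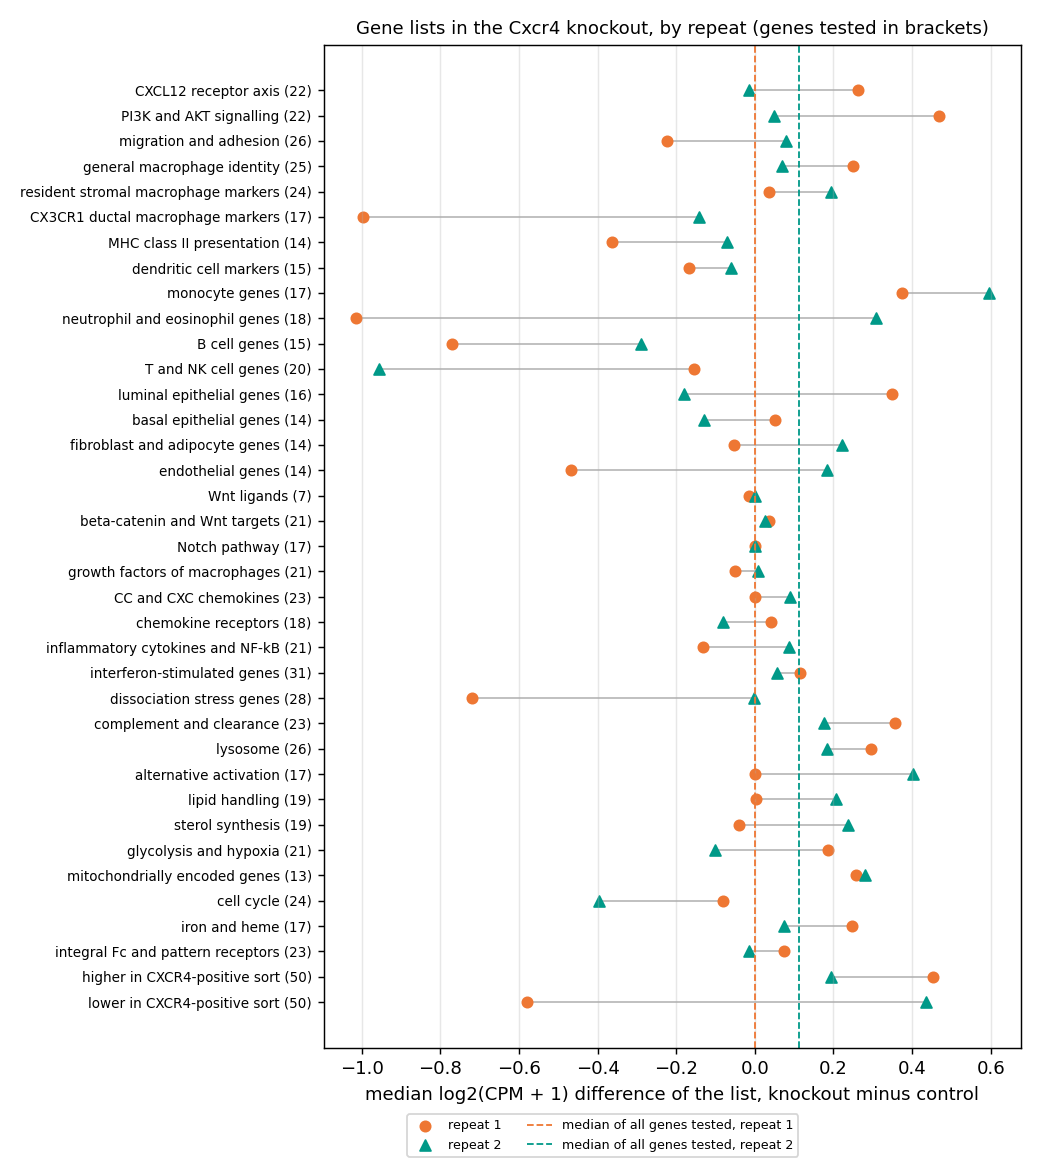
Median change of each gene list on the log2(CPM + 1) scale in repeat 1 (circles) and repeat 2 (triangles), over the members tested. Dashed lines are the medians of all genes tested (0.00 and 0.11). The lists of T and NK cell genes, B cell genes and ductal macrophage markers lie below the lines in both repeats, and the monocyte genes above them in both. Other lists do so too, among them MHC class II and cell cycle genes below, and complement and lysosome genes above.

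The knockout was next set beside macrophages of wild type mice sorted by surface CXCR4 (2 CXCR4-positive libraries and 1 CXCR4-negative one). The 2 lists taken from that sort held the 50 genes with the largest log2 difference in favour of the positive cells and the 50 with the largest in favour of the negative cells. They were ranked by difference, not by level. Of all genes with at least 10 CPM in the LysM-Cre libraries, 26.6% were higher and 22.6% lower in both repeats. Of 45 genes of the first list at that level, 24 were higher in both repeats, 6 lower and 15 opposite. Medians over the 50 genes of this list were 0.45 and 0.20. These genes include C1q chains, Folr2, Lyve1 and other members named above, so the lists overlap. Ocstamp (27.2 and 12.02 CPM in the controls, 0.0594 and 2.75 CPM in the knockouts) was lower by 2-fold in both repeats. The second list was mixed, with 8 of 41 higher, 11 lower and 22 opposite, and medians of -0.58 in repeat 1 and 0.44 in repeat 2. Klrd1, the gene of the NK cell receptor subunit CD94, had 54.8 and 63.0 CPM against 19.8 and 24.4 CPM. No gene of either list passed.

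Genes near the altered loci were listed last. Within 500 kb of Cxcr4, none of the 4 genes with at least 10 CPM (R3hdm1, Ubxn4, Mcm6 and Dars) had both knockouts outside the 6 other libraries. The same held for the 9 genes within 500 kb of Lyz2, which include Lyz1. In a wider window chosen after seeing the values, 4 of 37 genes within 5 Mb of Cxcr4 did so, against 3.83% of all genes, and 0 of 32 within 5 Mb of Lyz2. The next window, from 5 to 10 Mb of Cxcr4, also held 4 of 37. Both shares were above that of all genes, but the windows were set with the values known, so no excess is read from them. Within 1 Mb of Cxcr4, 0 of 7 genes lay outside the 6 others. From 10 to 20 Mb, 1 of 15 lay above them and 0 below. Beyond 20 Mb on the same chromosome, 11 of 529 genes lay above all 6 others and 13 below. Whether distance from Cxcr4 plays a part was not tested. Of the 4 within 5 Mb, Ctse, the gene of cathepsin E at 3.05 Mb, had 0.0707 and 28.0 CPM in the controls and 109 and 54.2 CPM in the knockouts, against 0.233 to 12.4 CPM in the K8-Cre libraries. Rab29, given above, lies at 3.27 Mb. Ren1, a renin gene at 4.76 Mb, had 0.0707 and 6.21 CPM against 44.2 and 18.02 CPM, and at most 0.161 CPM in the K8-Cre libraries. Yod1, at 2.13 Mb, was lower, with 32.9 and 19.4 CPM against 1.72 and 17.4 CPM. None of these passed. Rab29 and Ren1 reached the mean of 10 CPM only through the knockouts, with control means of 0.0497 and 3.14 CPM. Yod1 reached it only through the controls, with a knockout mean of 9.54 CPM.

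**Figure D5:**
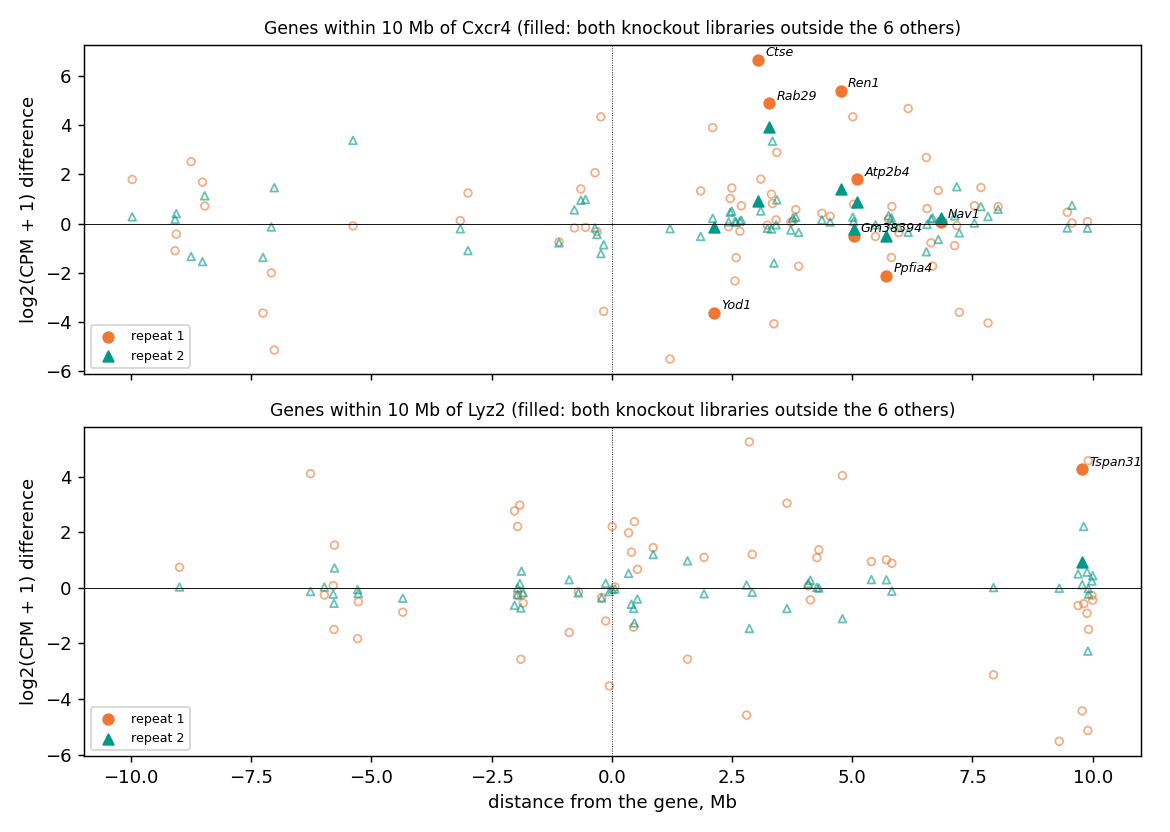
Change in repeat 1 (circles) and repeat 2 (triangles) on the log2(CPM + 1) scale against distance in Mb from Cxcr4 (upper) and Lyz2 (lower), for genes with a mean of at least 10 CPM within 10 Mb. Filled symbols are genes with both knockout libraries outside the 6 others, 4 of 37 within 5 Mb of Cxcr4, 4 of 37 from 5 to 10 Mb of it, and 0 of 32 within 5 Mb of Lyz2.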

How the data were processed

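RNA of 4 LysM-Cre and 4 K8-Cre macrophage libraries was used. Per the labels' protocols, total RNA was depleted of ribosomal RNA and made into libraries with PrepX chemistry. The submitters' processing notes name Partek and STAR 2.7.8a. They also give hg38, a human build, while symbols and positions are mouse (99.5% of gene starts match GENCODE M21, GRCm38). The counting step is not given in the sources used here. The deposited values are log2(CPM + 0.0001), a scale read from the values. They were turned back to CPM, and depth was read as the sum divided by the smallest step. Between 77.9% and 87.7% of LysM-Cre values up to 50 reads came out whole (tolerance 0.05 reads), so no count test was used.

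Changes were fitted with limma 3.58.1 (R 4.3.3) on log2(CPM + 1), with 4 group means over 8 libraries, no block, and a mean-variance trend; genes had to reach 1 CPM in 2 or more libraries. The prior held 97.3 degrees of freedom and the residual 4, so spread came mostly from genes of like level. Tests are two-sided, adjusted by Benjamini-Hochberg, and pass under 0.05. The pseudocount of 1 understates changes of low genes. On simulated data the fit recovered few of the smallest changes tried and missed many of the largest, so a gene that did not pass may still differ.

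Named were Lyz2, Lyz1, Cxcr4, Cxcl12, Ackr3, the 15 higher and 15 lower genes with the largest smaller-of-both changes (mean of at least 10 CPM, no overlap; clones, pseudogenes and small RNA left out), members of 35 gene lists that differ by 2-fold in both repeats or, failing that, have the highest mean, and genes within 500 kb of Cxcr4 and Lyz2. Other list members were named after their values were seen. Some genes that these rules or counts include are not reported here. Members and lists were chosen with earlier results of these data known. The lists overlap and 738 memberships were listed. Alternatives covered scaling, pseudocount, filter, trend, weights, block and left-out libraries.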

Additional observations from a re-analysis of the deposited data

Results flagged for a closer look

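The change of Lyz2 differed between the Cxcr4 knockout of the LysM-Cre line and the Cxcl12 knockout of the K8-Cre line by -6.08 on the log2(CPM + 1) scale (SE 0.56, limma adjusted p = 2.88e-14). It did not pass at a mean of at least 20 CPM or when the spread was not modelled as a trend. It is listed here because knockout minus control gave effects that differ between the lines by a test of the difference itself. The lines differ in the gene deleted and in the cells that delete it, and in LysM-Cre mice Cre is inserted in Lyz2. These cannot be told apart here.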

How the results depend on the processing

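With 2 libraries a group, counts of passing genes moved with settings. For the Cxcr4 knockout, limma's count of 1 became 8 with no filter, 0 with no trend (687 at an unadjusted p under 0.05), 6 with array quality weights and 2 with the 4 LysM-Cre libraries alone, and ran from 1 to 150 with 1 library left out. For the difference between the knockouts the count of 1 became 2 with no filter, 0 at a mean of at least 20 CPM (65 unadjusted), 0 with no trend (427 unadjusted), 2 with weights, and 1 to 30 with 1 library left out. Lyz2 stood at -6.47 with no trend (adjusted p = 1) and at -7.41 to -5.53 with 1 library left out, where it passed each time. Cxcr4 ran from -2.17 to -0.81. Cxcl12 turned to 0.64 without knockout 1 and ran down to -2.27 without knockout 2. Ptger1 (5.64), Armcx3 (5.48), Pprc1 (5.43) and Lyz1 (1.91) passed without control 2.

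The 484 genes agreeing at 2-fold became 259 with a pseudocount of 5, 1333 with no filter, 190 at a mean of at least 20 CPM, and 79 at 4-fold. In settings added after seeing the data they became 37 at 50 CPM, 8 at 100 CPM, and 67 when also outside all 6 other libraries. Opposite directions numbered 274, 1310, 211, 97, 36 and 6 in all but the last of these, where none can occur. Quantile normalization moved the median change of all genes from 0.14 to 0.03. List medians moved by more than 1 SD between repeats in 141 of 703 alternatives. The cause of these shifts was not tested.

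Repeat numbers marked no stated litter or day. Deviations of same-numbered LysM-Cre libraries had r = 0.139, and other pairs of groups 0.057 to 0.091. With the replicate block, limma called 1 gene (738 unadjusted), 1 for the difference between knockouts, Lyz2 at -6.47 (adjusted p = 6.06e-22) and Cxcr4 at -1.49 (adjusted p = 0.737). Depth limits genes under 0.212 CPM in control 1.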
